A study of Mus musculus with 14 samples.

Results

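The genes described here (the members) are 42 genes of the response led by ATF4, the transcription factor that adjusts a cell to a shortage of amino acids, in a mouse acute myeloid leukemia line in which Ogdh was knocked down. They were chosen by gene name, by a rule that itself uses no measured value. Earlier results of these data were known when the set was chosen, so it may not be independent of them. The set holds 7 transcription factors, 7 stress effectors or feedback genes, 11 enzymes of amino acid synthesis, 7 amino acid transporters and 10 cytosolic tRNA synthetases. All 42 are among the 53465 genes of the table, and 36 of them passed the filter on low counts and were tested, out of 10791 genes tested in all. Messenger RNA was sequenced from the line KL974, which the labels describe as Trp53 R172H with hairpins against Mll3 and Nf1, a background that every group shares. Cells grew with IL3, IL6 and SCF and carried lentiviral hairpins that doxycycline switches on together with the blue fluorescent protein BFP. The control hairpin shRen713 was sampled in 5 groups: untreated at day 0, and on doxycycline at days 2 and 4, each day sorted into BFP positive (induced) and BFP negative (uninduced) cells. The hairpins shOgdh346 and shOgdh2081 were each sampled as BFP positive cells at day 4. Each of the 7 groups has 2 libraries, and all 14 come from 1 cell line.

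When amino acids run short or another stress sets in, kinases phosphorylate the translation factor eIF2alpha, most protein synthesis slows, and the Atf4 messenger is translated more. ATF4 pairs with C/EBP proteins on composite elements and switches on genes that import amino acids, make serine, glycine, proline, cysteine and asparagine, and charge tRNAs. Because ATF4 is raised mainly through its translation, the Atf4 messenger need not follow its activity. Ogdh encodes a subunit of the alpha-ketoglutarate dehydrogenase complex, a step of the citric acid cycle that consumes alpha-ketoglutarate, the partner of glutamate in transamination.

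Library totals ran from 913482 to 10271698 counts, an 11.2-fold range. The shallowest library was shOgdh2081 replicate 1, and shOgdh346 replicate 2 held 1159021 counts. Ogdh itself averaged 56.4 CPM (counts per 1e6 counts of tested genes) in the 4 knockdown libraries and 257 in the day 4 control BFP positive libraries, a log2 fold change of -2.19 ± 0.09 (SE, adjusted p = 1.63e-30, edgeR). Of the genes that mark blood progenitors, Kit and Myb were abundant, whereas Mpo had 1 count and Cd34 had 2 counts over all 14 libraries, and the mature myeloid markers Itgam, Ly6g and Lyz2 were at 0. Defining transcripts of granulocytes and macrophages were thus absent or nearly so from a line labelled as a myeloid leukemia, while erythroid and mast cell markers summed to 563 to 768 and 18.8 to 136 CPM. In bulk RNA, fewer cells of a kind and less RNA per cell cannot be told apart.

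The composite element that ATF4 and C/EBP proteins bind has the core TGATGNAA, read as TTNCATCA on the other strand. In RefSeq promoters of the build GRCm38.p6, running from 250 bases before to 50 bases after each gene's start, 36 of the 42 genes had an entry and 13 of these (36.1%) held the core on either strand. The same letters stood in a promoter of 4.51% of all 27025 genes with an entry and of 2.49% of the 8306 such genes that were tested. This is a description without a test, since genes are often called ATF4 targets because they carry this element. The 13 were Aars, Asns, Atf3, Chac1, Gars, Iars, Nupr1, Pycr1, Slc1a4, Tars, Trib3, Vldlr and Yars. Of the members higher in BFP positive control cells at day 2, 5 of 14 with an entry held it, beside 5 of 16 tested members that were not called. Of the members lower with Ogdh knockdown, 1 of 6 with an entry, Gars, held it. The stretches below show where the core, in capitals, lies ahead of the start in 5 of these genes, each read 5′ to 3′ on the gene's strand: Asns, the classical target with this element, Chac1, Pycr1 and the synthetase Tars, which rose in BFP positive control cells at day 2, and the synthetase Gars, which fell with knockdown.
Asns (chr6:7693210-7693279, minus strand, first base of the core 23 bases before the start): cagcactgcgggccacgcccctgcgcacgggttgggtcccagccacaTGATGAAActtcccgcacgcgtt
Chac1 (chr2:119351018-119351087, plus strand, first base of the core 193 bases before the start): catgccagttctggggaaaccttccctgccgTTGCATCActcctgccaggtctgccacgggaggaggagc
Pycr1 (chr11:120643813-120643882, minus strand, first base of the core 103 bases before the start): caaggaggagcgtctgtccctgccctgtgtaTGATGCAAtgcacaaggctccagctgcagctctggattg
Tars (chr15:11399659-11399728, minus strand, first base of the core 15 bases before the start): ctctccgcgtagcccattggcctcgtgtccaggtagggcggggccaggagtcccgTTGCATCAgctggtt
Gars (chr6:55037931-55038000, plus strand, first base of the core 30 bases before the start): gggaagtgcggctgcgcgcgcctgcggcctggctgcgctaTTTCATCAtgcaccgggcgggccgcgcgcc

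The most abundant of the 42 per kilobase of transcript, averaged over the 14 libraries, were Asns at 318 CPM per kilobase, Atf4 at 291 and Nars at 198, and the lowest of those tested were Gpt2 at 2.18 and Chac1 at 2.13. Counts of all 42 together made up 1.03 and 1.01% of the day 2 control BFP positive libraries. They made up 0.840 to 0.892% of the other control libraries, 0.824 and 0.806% with shOgdh346, and 0.796 and 0.833% with shOgdh2081. Thus the day 2 BFP positive cells held the highest share, and each of the 4 knockdown libraries held less than each of the 10 control libraries. Of the 36 tested members, 26 had their highest group mean in control BFP positive cells at day 2, and in 19 both libraries of that group lay above the 12 others. Of all tested genes, 20.3% had their highest group mean there, and in 7.32% both libraries lay above the others. The lowest group mean fell in shOgdh346 cells for 13 members and in shOgdh2081 cells for 11, as it did for 17.2% and 19.2% of all tested genes. Not tested were Atf3 (65 counts in all 14 libraries), Cebpb (25), Nupr1 (93), Stc2 (28), Cbs (31) and Vldlr (0, which allows up to 0.0622 counts per 1e6 over all libraries, counting error only). Of these, Stc2, which encodes a secreted glycoprotein, stood at 2.07 and 2.73 CPM in the day 2 BFP positive cells and at no more than 0.94 CPM elsewhere. Atf3, a stress-induced partner of ATF4, stood at 2.07 and 4.77 CPM there and between 0.355 and 2.19 CPM elsewhere, so its groups overlapped.

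**Figure D1:**
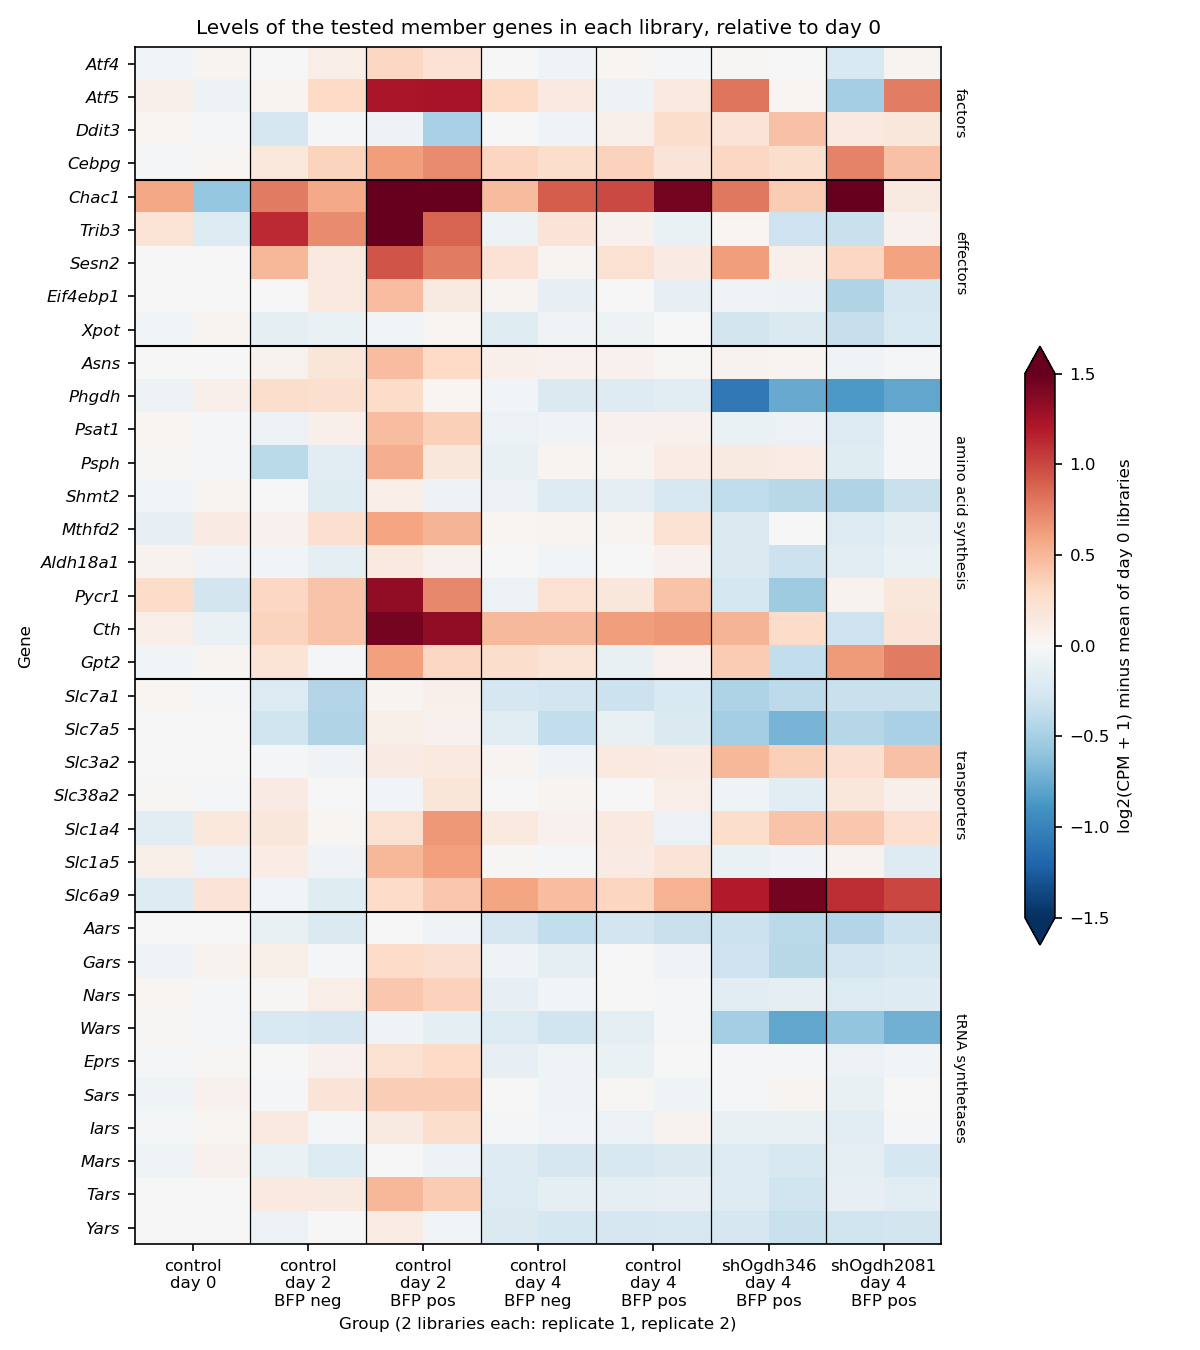
Levels of the 36 tested members (rows, by class) in the 14 libraries (columns, 2 per group), as log2(CPM + 1) minus the mean of the day 0 libraries, with colours saturating at the ends of the scale. The day 2 control BFP positive libraries are the warmest columns for most factors, synthesis enzymes and synthetases. By group mean, however, Ddit3 is lowest there, and Phgdh, Gpt2, Aars, Wars and Mars are highest in other groups. Phgdh and Wars are bluest and Slc6a9 reddest in the 4 Ogdh knockdown libraries.

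Induced and uninduced control cells were compared first, within each day. At day 2, 18 of the 36 tested members were higher in BFP positive cells and 0 were lower, at an adjusted p under 0.05 in edgeR's quasi-likelihood test, while 3% of all tested genes were called higher and 3.22% lower, 6.23% in all. The median log2 fold change was 0.29 over the members, against 0.00 over all tested genes, and 34 of 36 had a positive value. Chac1, Atf5, Cth, Pycr1, Psph and Trib3 changed most. Both sorted fractions had been treated with doxycycline. Pairs of values are given as replicate 1 and then replicate 2 throughout.

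Among the transcription factors, 2 of 4 tested members rose. Atf5, a relative of ATF4, stood at 16.9 and 17 CPM in BFP positive cells and at 6.85 and 8.40 in BFP negative cells (log2 fold change 1.11 ± 0.28, adjusted p = 0.00655, edgeR). No other library reached the BFP positive pair, but Atf5 lies across the strand from Nup62, which has 5404 counts to its 445, and the sources used here do not give the strand setting of the counting. Cebpg, a dimer partner of ATF4, had 117 and 123 CPM against 83.9 and 95.1 (0.40 ± 0.11, adjusted p = 0.0139, edgeR). Atf4 itself was at 609 and 569 CPM against 489 and 523, pairs that do not overlap, but its log2 fold change of 0.22 ± 0.08 missed the threshold (adjusted p = 0.0794, edgeR). Ddit3, which encodes the pro-apoptotic factor CHOP, had 57.5 and 42.9 CPM against 50.5 and 59.2 (-0.10 ± 0.14, adjusted p = 0.772, edgeR), and it overlaps Mars on the other strand.

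Of the stress effectors, Chac1, Trib3 and Sesn2 rose and Eif4ebp1 and Xpot were not called. Chac1, an enzyme that degrades glutathione, had 11 and 6.81 CPM in BFP positive cells and 2.57 and 2.10 in BFP negative cells (2.06 ± 0.45, adjusted p = 0.00127, edgeR). These levels rest on 32 and 10 counts in the BFP positive libraries and 6 and 9 in the BFP negative ones. Sesn2, which restrains mTORC1 when leucine is short, stood at 63.3 and 56.6 CPM against 46.2 and 36.1 (0.60 ± 0.15, adjusted p = 0.00572, edgeR). Trib3, a pseudokinase that feeds back on ATF4, stood at 51.6 and 26.6 CPM against 31.7 and 23.6, so its groups overlapped. Its log2 fold change of 0.66 ± 0.19 (adjusted p = 0.0196, edgeR) became -0.0037 without BFP positive replicate 1.

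Of the 10 tested enzymes of amino acid synthesis, 6 rose. Cth, which makes cysteine from cystathionine, had 75.4 and 70.2 CPM in BFP positive cells and 34.7 and 37.1 in BFP negative cells (1.02 ± 0.14, adjusted p = 1.75e-07, edgeR). Its BFP positive pair lay far above the 12 other libraries, which ran from 21.9 to 43.4 CPM. In the serine pathway, Psat1 had 752 and 694 CPM against 511 and 572 (0.42 ± 0.08, adjusted p = 8.97e-05, edgeR). Psph, which completes serine synthesis, had 102 and 78.4 CPM against 52.2 and 61.8 (0.67 ± 0.12, adjusted p = 9.7e-05, edgeR), though it overlaps the far more abundant Cct6a on the other strand. Phgdh, which opens the same pathway, was not called. It had 105 and 87.9 CPM against 104 and 102 (-0.06 ± 0.11, adjusted p = 0.829, edgeR). Asns, asparagine synthetase, had 1126 and 1004 CPM against 845 and 922, which do not overlap (0.27 ± 0.07, adjusted p = 0.0109, edgeR). The mitochondrial folate enzyme Mthfd2 had 192 and 181 CPM against 133 and 151 (0.39 ± 0.10, adjusted p = 0.00642, edgeR). Pycr1, which makes proline, had 30.6 and 19.8 CPM against 14.6 and 15.9 (0.80 ± 0.22, adjusted p = 0.013, edgeR). Gpt2, Shmt2 and Aldh18a1 were not called.

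Among the transporters, 3 of 7 rose. Slc1a5, a glutamine carrier, had 188 and 204 CPM against 143.9 and 127.8 (0.53 ± 0.10, adjusted p = 6.54e-05, edgeR). Slc7a5, the light chain of the large neutral amino acid exchanger, had 342 and 337 CPM against 260 and 235 (0.46 ± 0.09, adjusted p = 0.000107, edgeR). The arginine and lysine carrier Slc7a1 had 253 and 260 CPM against 214 and 182 (0.39 ± 0.09, adjusted p = 0.00206, edgeR). For Slc7a5 and Slc7a1 the BFP positive cells stood near the day 0 libraries, at 321 and 321 CPM and at 252 and 241 CPM, and the BFP negative cells lay below both. Slc3a2, Slc38a2, Slc1a4 and Slc6a9 were not called. Of the 10 synthetases, Nars, Tars, Sars and Eprs rose. Nars, for asparagine, had 684 and 660 CPM against 523 and 553 (0.32 ± 0.07, adjusted p = 0.00251, edgeR). Tars, for threonine, had 438 and 402 CPM against 342 and 341. Sars, for serine, had 319 and 318 CPM against 244 and 281, and Eprs, for glutamate and proline, 705 and 743 CPM against 601 and 631. In all 4 the pairs did not overlap, and their log2 fold changes ran from 0.23 to 0.32.

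The count of 18 leaned on a single library. Without BFP positive replicate 1, which had 3008718 counts, 5 members were called (Psat1, Cth, Slc7a1, Slc7a5 and Slc1a5), while without replicate 2, which had 1500031, 16 were. DESeq2 called 9, and Psat1, Cth, Slc7a5 and Slc1a5 were called under all 12 alternatives run for this comparison. The median over the members stayed between 0.25 and 0.36 in those alternatives. The relation of count to transcript length bent more in BFP positive replicate 1 than in any other control library, by -0.227 to 0.341 on the log2 scale, and a fit that follows this curve called 20 members. Blood markers moved in this comparison too: Hbb-bt, Hba-a1 and Gata2 were lower in BFP positive cells, and the 5 erythroid markers summed to 604 to 647 CPM there against 760 to 768 in BFP negative cells. The 5 mast cell markers summed to 32.4 to 40.9 and 30.8 to 37.1 CPM. The part of these shifts in the members' values was not tested.

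**Figure D2:**
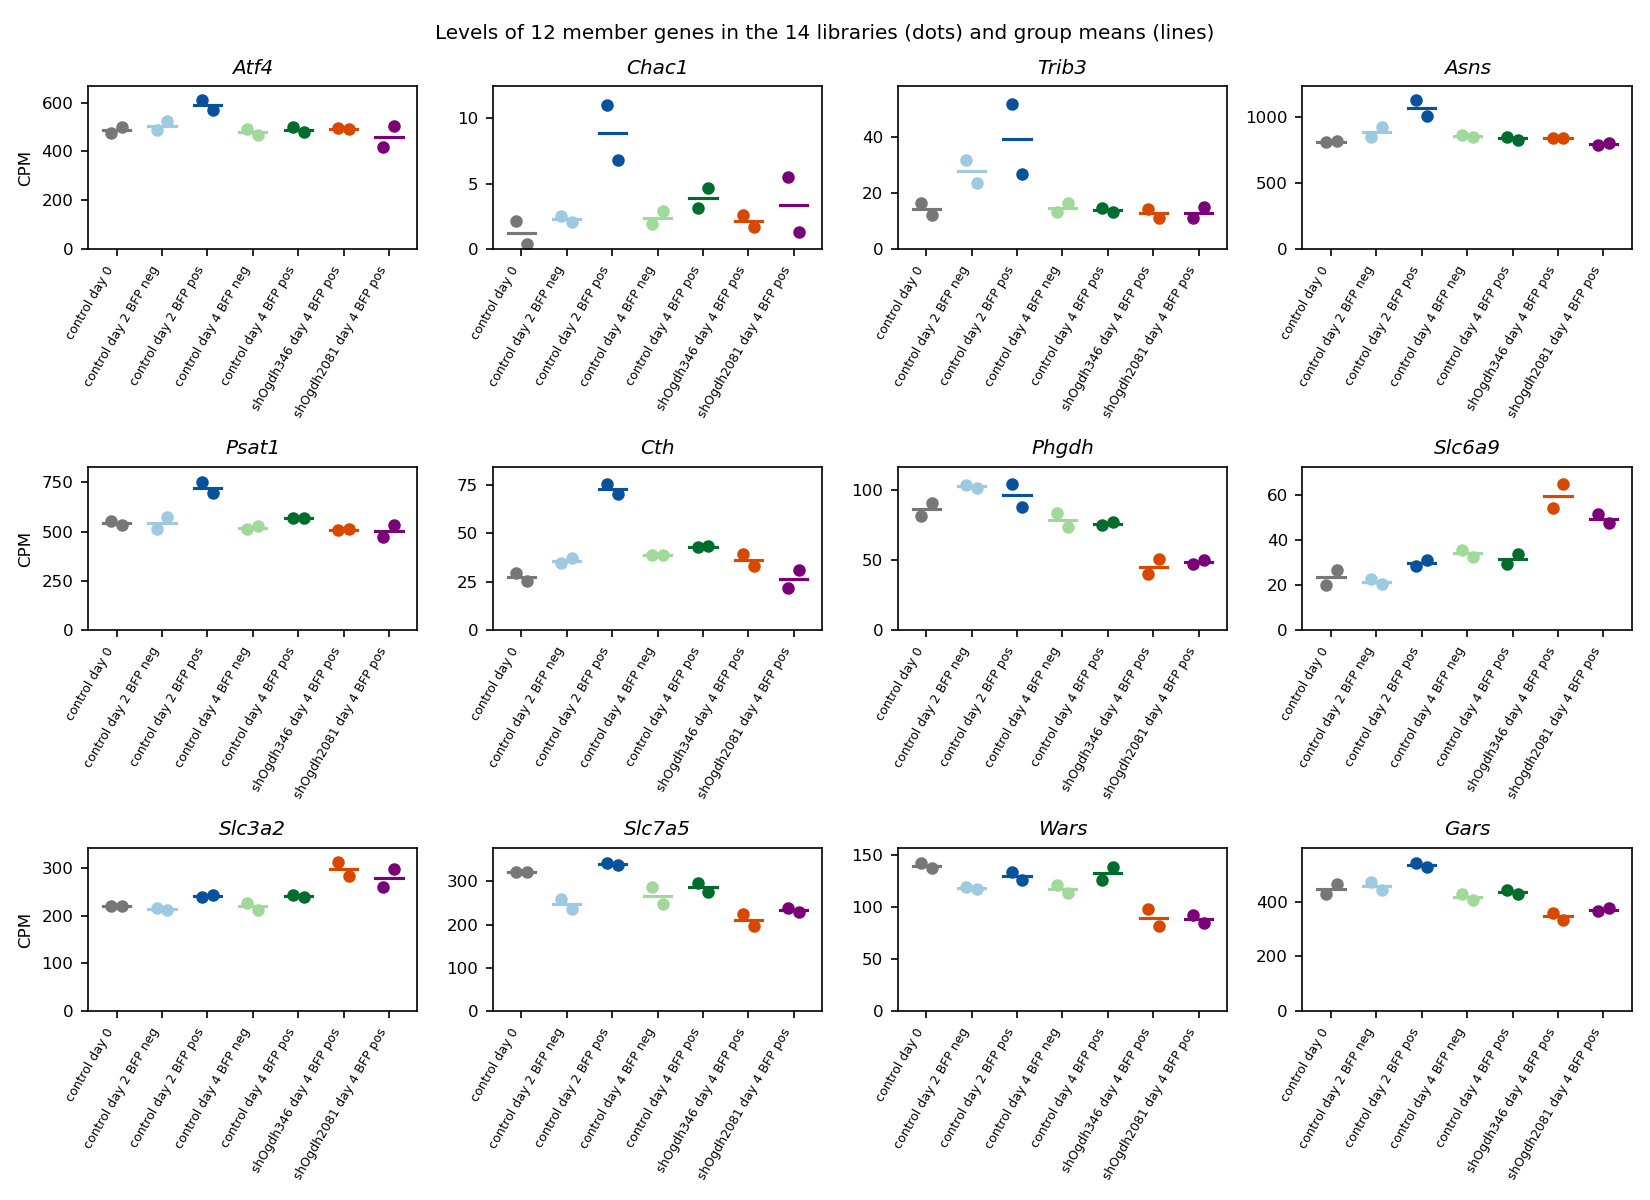
Levels in CPM, on axes that start at 0, of 12 members in each library (dots) with the mean of each group (lines). Cth, Psat1 and Asns peak in control BFP positive cells at day 2, while Phgdh, Wars and Slc7a5 are lowest and Slc6a9 and Slc3a2 highest in the Ogdh knockdown groups at day 4.

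At day 4 none of the 36 members was called between BFP positive and BFP negative control cells, where 0.0371% of all tested genes were higher and 0.0371% lower, 0.0741% in all. By edgeR 0 members had an unadjusted p under 0.05, while 4.61% of all tested genes did, and DESeq2 called 0. Cth stood at 42.9 and 43.4 CPM in BFP positive cells and 38.8 and 38.7 in BFP negative cells, Psat1 at 569 and 567 against 512 and 526, and Atf5 at 6.27 and 7.46 against 8.40 and 7.47. Tested as the day 4 effect minus the day 2 effect, 32 of 36 members had a negative value, and 1, Cth, passed (-0.87 ± 0.19, adjusted p = 0.00736, edgeR), beside 0.658% of all tested genes. At an unadjusted p under 0.05 the difference held for 20 members, against 9.8% of all tested genes.

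The untreated day 0 cells, which the labels do not describe as sorted, give another reference. The comparisons with day 0 share its 2 libraries. BFP positive cells at day 2 had 20 members higher and 0 lower than day 0, with 9.1% of all tested genes higher and 8.77% lower. Here Atf4 passed as well, at 609 and 569 CPM against 477 and 502 (0.27 ± 0.08, adjusted p = 0.0105, edgeR). That call depended on day 0 replicate 1 and on BFP positive replicate 1. The largest values were those of Chac1 (2.84 ± 0.54), Trib3 (1.56 ± 0.22), Cth (1.42 ± 0.15), Atf5 (1.33 ± 0.30) and Pycr1 (1.17 ± 0.24). Chac1 had 2.13 and 0.391 CPM at day 0, the latter from 1 count, so its fold rests on few reads. BFP negative cells at day 2 had 1 member higher and 2 lower, beside 5.33% and 4.98% of all tested genes. The higher one was Trib3, with 31.7 and 23.6 CPM against 16.3 and 12.1 (0.90 ± 0.23, adjusted p = 0.0053, edgeR), and Slc7a1 and Slc7a5 fell by 0.33 and 0.38 on the log2 scale. DESeq2 did not call Trib3, and with libraries thinned to equal depth neither Trib3 nor Slc7a1 was called.

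At day 4, BFP negative cells had 2 members above day 0 and 4 below, with 3.84% and 4.19% of all tested genes (8.03% in all), and BFP positive cells had 1 above and 3 below, with 3.46% and 3.65% (7.11% in all). Cth was above day 0 in both, by 0.49 ± 0.15 and 0.65 ± 0.16, and Slc6a9 in BFP negative cells by 0.52 ± 0.16. Aars, Yars and Slc7a1 were below day 0 in both. Aars, the alanine synthetase, had 479 and 473 CPM at day 0, 400 and 370 in BFP negative cells and 389 and 376 in BFP positive cells at day 4. Yars, the tyrosine synthetase, had 304 and 307 CPM at day 0 and 255 to 264 in the control cells of day 4, none of which overlapped day 0. Leaving out 1 library at a time left between 0 and 6 for BFP negative cells and between 0 and 1 for BFP positive cells.

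The study's title names the enzyme of Ogdh as a vulnerability of this leukemia, and the next comparison shows these genes after its knockdown. Averaged over both hairpins and set against control BFP positive cells at day 4, 10 of the 36 tested members were lower and 2 were higher, while 8.36% of all tested genes were lower and 7.72% higher. The lower ones were Phgdh, Shmt2, Mthfd2, Aldh18a1, Cth, Slc7a5, Slc1a5, Xpot, Gars and Wars, and the higher ones Slc6a9 and Slc3a2. The member median was -0.04 against 0.00 over all tested genes, with 26 of 36 values negative. Phgdh, Wars and Slc6a9 moved most among the called members and were called under all 15 alternatives run for this comparison.

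None of the 4 tested transcription factors was called. Atf4 had 495 and 491 CPM with shOgdh346, 418 and 504 with shOgdh2081, and 500 and 479 in control cells (-0.02 ± 0.07, adjusted p = 0.855, edgeR). Ddit3 had 69.5 and 82.2 CPM, 66.9 and 68.4, and 63.9 and 72.7 in the same order (0.06 ± 0.11, adjusted p = 0.781, edgeR). Both genes overlapped between knockdown and control. Of the effectors, Trib3 stood at 11 to 14.8 CPM in the 4 knockdown libraries against 14.7 and 13.1 (-0.02 ± 0.23, adjusted p = 0.979, edgeR), and Chac1 at 1.29 to 5.48 CPM against 3.13 and 4.66 (-0.75 ± 0.48, adjusted p = 0.296, edgeR). Xpot, the exporter of tRNAs from the nucleus, was at 224 to 244 CPM against 270 and 285 (-0.22 ± 0.07, adjusted p = 0.0291, edgeR).

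Of the 10 tested synthesis enzymes, 5 fell and none rose. Phgdh, which diverts a glycolytic intermediate into serine, had 40.4 and 50.5 CPM with shOgdh346 and 47.2 and 50 with shOgdh2081, against 75.2 and 76.9 in control BFP positive cells. Its lowest control library of any group, at 74.0 CPM, lay above all 4 knockdown libraries. The log2 fold change was -0.73 ± 0.11 (adjusted p = 2.06e-06, edgeR), a 1.65-fold lower level. Phgdh lies on chromosome 3 at 98313170 to 98339990, minus strand, in GRCm38. The later serine enzymes were not called: Psat1 had 472 to 531 CPM against 569 and 567 (-0.16 ± 0.07, adjusted p = 0.0899, edgeR), which do not overlap, and Psph 61.4 to 76.2 against 71.7 and 75.1. Shmt2, which turns serine into glycine in mitochondria, had 354 to 383 CPM against 442 and 409 (-0.20 ± 0.07, adjusted p = 0.0389, edgeR). Mthfd2, which carries the one-carbon unit onward, had 109.4 to 126.7 CPM against 131 and 149 (-0.29 ± 0.09, adjusted p = 0.0203, edgeR). Neither pair of groups overlapped. Aldh18a1, the first enzyme of proline and ornithine synthesis from glutamate, had 264 to 308 CPM against 329 and 345 (-0.21 ± 0.07, adjusted p = 0.03, edgeR). Cth had 39.3 and 33.4 CPM with shOgdh346 and 21.9 and 31.3 with shOgdh2081 against 42.9 and 43.4 (-0.37 ± 0.13, adjusted p = 0.0478, edgeR). Asns, in contrast, had 785 to 841 CPM against 851 and 827, with overlapping groups (-0.04 ± 0.06, adjusted p = 0.743, edgeR).

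Transporters moved in both directions. Slc6a9, the glycine transporter GlyT1, had 54.3 and 65.0 CPM with shOgdh346 and 51.5 and 47.6 with shOgdh2081, against 29.4 and 34.0 in control BFP positive cells (0.74 ± 0.14, adjusted p = 5.09e-05, edgeR). The highest of the 10 control libraries had 35.8 CPM, so the knockdown libraries stood apart from every control group. Slc3a2, the heavy chain that carries Slc7a5 to the membrane, had 311 and 282 CPM and 260 and 298 CPM against 244 and 240 (0.28 ± 0.07, adjusted p = 0.00557, edgeR). Its partner Slc7a5 went the other way, with 224 and 198 CPM and 238 and 228 CPM against 297 and 275 (-0.36 ± 0.08, adjusted p = 0.000319, edgeR). For both subunits of this exchanger the knockdown and the control BFP positive libraries did not overlap. Slc1a5 had 116 to 138 CPM against 144.4 and 152 (-0.26 ± 0.09, adjusted p = 0.027, edgeR). Slc7a1, Slc38a2 and Slc1a4 were not called.

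Of the 10 synthetases, 2 fell and the other 8 were not called. Wars, for tryptophan, on chromosome 12 at 108860030 to 108894174, minus strand, had 97.7 and 81.3 CPM with shOgdh346 and 92.1 and 84.3 with shOgdh2081, against 125.9 and 138 (-0.55 ± 0.09, adjusted p = 6.94e-06, edgeR). All 4 knockdown libraries lay below the lowest control library of any group, which had 113 CPM. Gars, for glycine, had 335 to 377 CPM against 443 and 428 (-0.27 ± 0.07, adjusted p = 0.00337, edgeR). It too was below every control library, of which the lowest had 406 CPM. The 10 synthetases had a median of -0.04 and ran from -0.55 to 0.01.

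The other calls depended on single libraries and on the tool. Without control BFP positive replicate 1 only those 3 were called, without control replicate 2 they were joined by Slc7a5 and Gars, and without shOgdh346 replicate 1 by Slc7a5, Gars and Aldh18a1. DESeq2 called 6 (the 3, Slc7a5, Slc3a2 and Gars), and Cth, Shmt2 and Aldh18a1 were not called in 11, 10 and 8 of the 15 alternatives. Blood markers moved with knockdown as well: the erythroid genes Hbb-bt and Hba-a1, the mast cell gene Ms4a2, Myb and Csf2rb rose, and Gata2 fell. The erythroid markers summed to 662 to 727 CPM against 563 to 585 in control BFP positive cells. The mast cell markers, with Tpsb2 at 0 throughout, summed to 118 to 136 CPM against 58.6 to 65.7. Most of the mast cell sum was Ms4a2, with means of 118 CPM for each Ogdh hairpin against 56.8. With shOgdh346 and shOgdh2081, Cpa3 averaged 4.67 and 6.42 CPM against 2.26, and Cma1 3.21 and 2.72 against 2.73. Fcer1a averaged 2.51 and 0.322 CPM against 0.390. The part of these shifts in the members' values was not tested. The T and B cell markers summed to at most 0.388 CPM in any library, with Cd3e, Cd4 and Cd8a at 0.

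**Figure D3:**
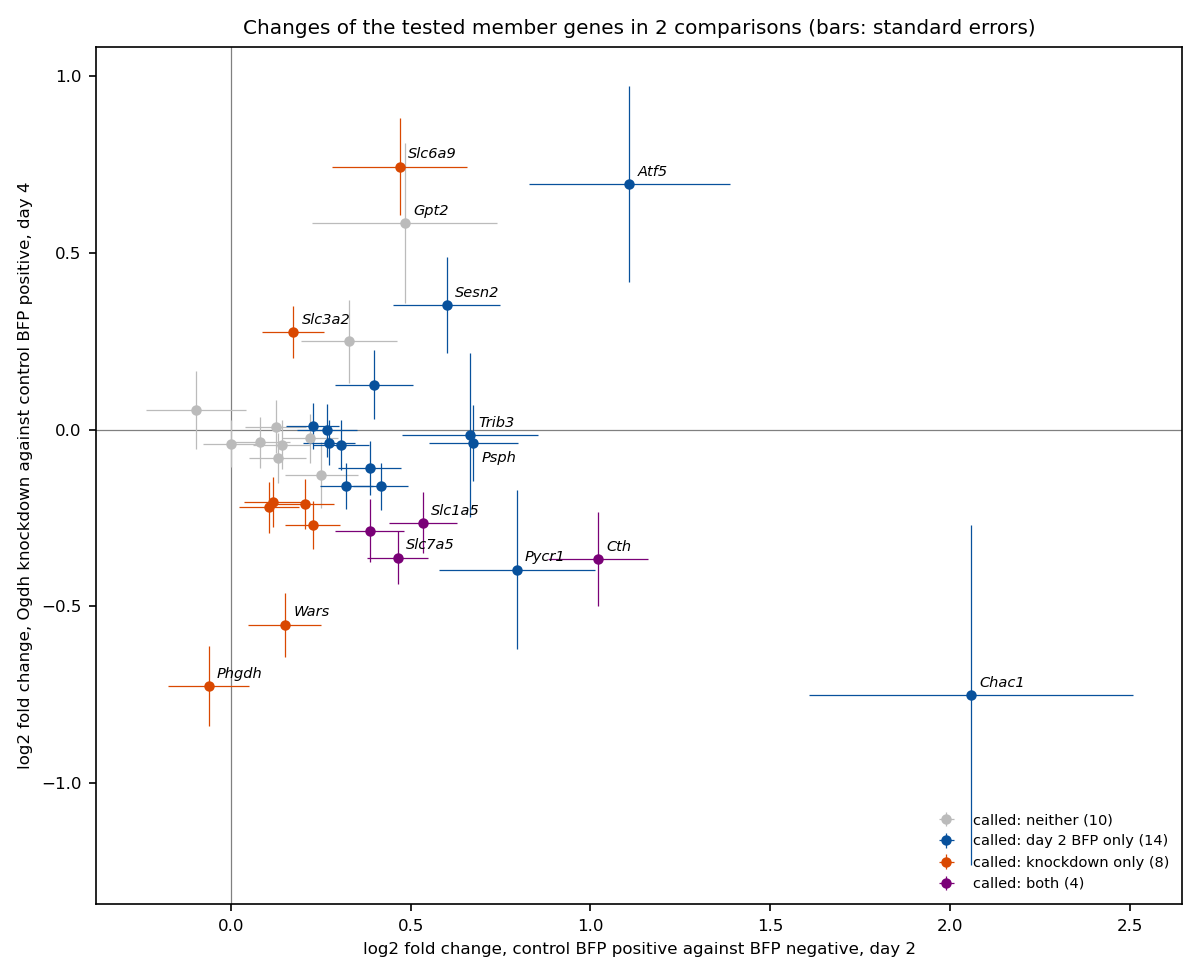
Log2 fold changes of the 36 tested members in the day 2 control cells, BFP positive against BFP negative (x axis) and in Ogdh knockdown against control BFP positive cells at day 4 (y axis), with standard errors as bars and colours for the calls. Of the members, 14 were called at day 2 only, 8 with knockdown only, 4 in both and 10 in neither; the 4 called in both lie at the lower right.

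The day 2 and the knockdown comparisons share no library, so their calls can be set side by side. Of the 18 members called at day 2 and the 12 called with knockdown, 4 were in both, 22.2% of the first list and 33.3% of the second: Cth, Mthfd2, Slc1a5 and Slc7a5. For scale, 33.3% of the 36 tested members were called with knockdown and 50% at day 2, so the overlap was no larger than these shares. Each of the 4 was higher in BFP positive control cells at day 2 and lower with knockdown against control BFP positive cells. Against the control BFP negative cells of day 4, Slc7a5 was called lower too, while Cth, Mthfd2 and Slc1a5 were not called. All 18 day 2 calls were higher and 10 of the 12 knockdown calls lower, which leaves little room for other directions. The overlap was not tested or counted over all tested genes. Of the serine and glycine enzymes, Psat1 and Psph were called at day 2 and not with knockdown, and Phgdh and Shmt2 with knockdown and not at day 2; the difference between the comparisons was not tested.

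The hairpins were also tested one by one. With shOgdh346, 2 members were higher and 5 lower, beside 5.58% and 5.6% of all tested genes. With shOgdh2081, 2 were higher and 4 lower, beside 6.02% and 5.53%. Both hairpins had lower Phgdh (-0.83 ± 0.13 and -0.62 ± 0.13), Wars (-0.50 ± 0.10 and -0.61 ± 0.11) and Slc7a5 (-0.41 ± 0.09 and -0.31 ± 0.09) and higher Slc6a9 (0.86 ± 0.15 and 0.63 ± 0.16), all against the same control libraries. These calls depended on single libraries: without shOgdh2081 replicate 2 only Cth was called for that hairpin, without control BFP positive replicate 1 only Phgdh and Wars, and DESeq2 called 2 as well. For shOgdh346, Phgdh was not called without shOgdh346 replicate 1, where 4 members were, and 3 members were called without control BFP positive replicate 1. Slc3a2, Aldh18a1 and Gars were called with shOgdh346, and Cth and Gpt2 with shOgdh2081. Gpt2, which moves an amino group between glutamate and alanine in mitochondria, had 16.4 and 18.2 CPM with shOgdh2081, 13.6 and 7.70 with shOgdh346 and 9.40 and 10.7 in control cells. Tested directly, no member differed between the hairpins. Of all tested genes 0.0649% were higher and 0.0185% lower with shOgdh2081, 0.0834% in all. Among the members, 4 had an unadjusted p under 0.05 by edgeR, and DESeq2 called 0. The largest difference was that of Gpt2, 0.52 ± 0.23 higher with shOgdh2081 (adjusted p = 0.604, edgeR), and a p over the threshold does not show that the hairpins act alike.

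Against the control BFP negative cells of day 4, the same knockdown libraries had 3 members higher and 5 lower, with 10.5% and 10.3% of all tested genes. Phgdh (-0.76 ± 0.10), Wars (-0.38 ± 0.08), Slc7a5 (-0.25 ± 0.07), Shmt2 (-0.24 ± 0.07) and Gars (-0.20 ± 0.07) were lower. Slc6a9 (0.64 ± 0.11) and Slc3a2 (0.42 ± 0.07) were higher, as was Sesn2 (0.43 ± 0.12, adjusted p = 0.00423, edgeR). Sesn2 had 50.8 and 34.2 CPM with shOgdh346 and 40.6 and 49.8 with shOgdh2081, against 38 and 33.5 in BFP negative cells, which overlap. The member share called here was close to that of all tested genes, 22.2% beside 20.8%.

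**Figure D4:**
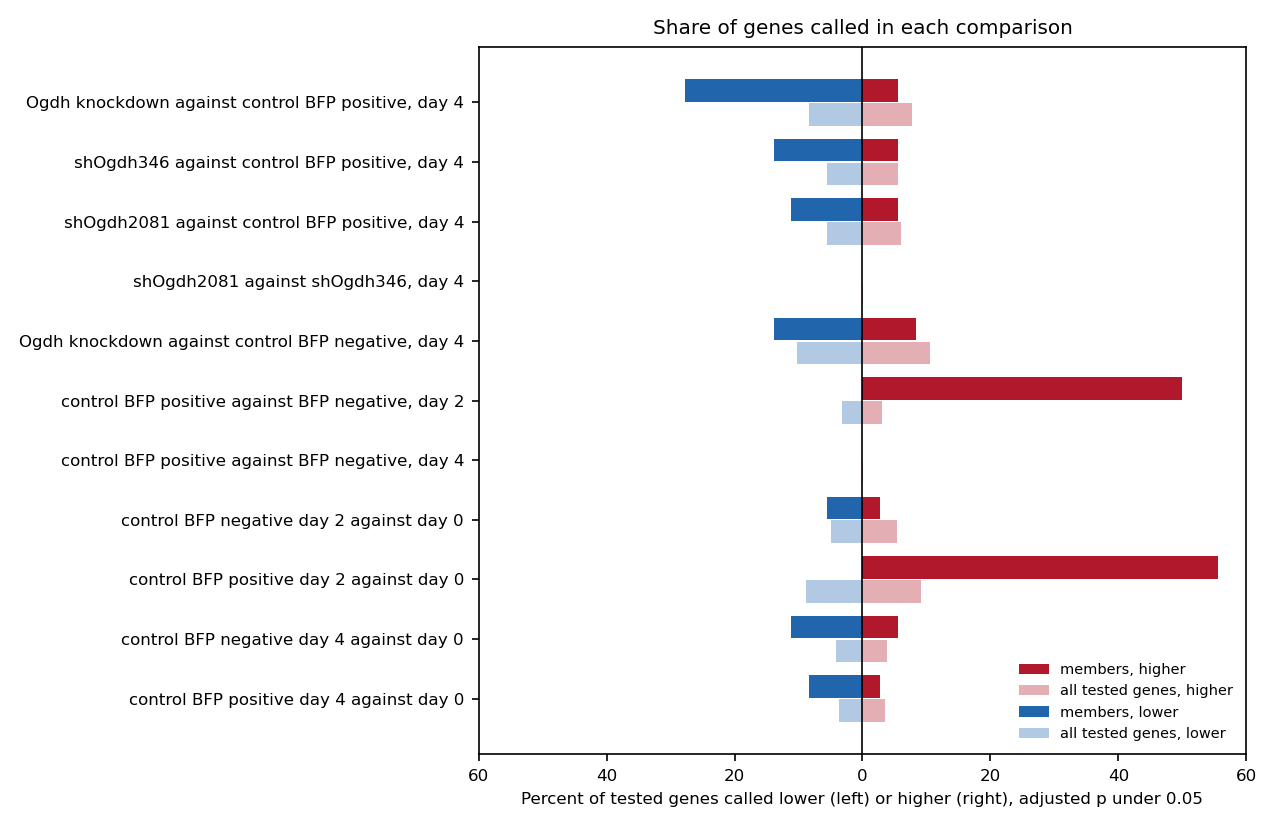
Share of the 36 tested members (dark bars) and of all 10791 tested genes (light bars) called lower (left) or higher (right) in each comparison, in percent. The members' longest bars are those of BFP positive control cells on day 2, against BFP negative cells (50%) and against day 0 (55.6%), followed by the members lower with Ogdh knockdown (27.8%).

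Other genes of the pathway were taken from fixed lists, whose counts are to be read against the 16.1% of all tested genes called in either direction with knockdown. The first list held 19 tested genes around eIF2alpha: its kinases, eIF2 and eIF2B subunits, phosphatase subunits and other inputs to this stress response. Of these, 3 rose with knockdown and 0 fell (15.8%, near that background). They were Impact, an inhibitor of the kinase GCN2 (0.53 ± 0.13), the phosphatase subunit Ppp1r15b (0.29 ± 0.07) and the heme-regulated kinase Eif2ak1 (0.28 ± 0.09). Of 14 other genes known as ATF4 targets, 4 rose and 2 fell (42.9%). The autophagy receptor Sqstm1 rose by 0.66 ± 0.08 (adjusted p = 6.98e-10, edgeR), Gtpbp2 by 0.42 ± 0.10, Map1lc3b by 0.36 ± 0.12 and Ero1l by 0.30 ± 0.09, while Lars (-0.30 ± 0.08) and Mthfd1l (-0.27 ± 0.08) fell. Among 12 other genes of serine, glycine and folate metabolism 5 fell and 0 rose (41.7%). Gcsh, of the glycine cleavage system, had the largest value (-0.58 ± 0.10, adjusted p = 9.81e-06, edgeR), and Mthfd1l, Tyms and Mthfd1 were also lower. Among 11 other genes of glutamate, proline and ornithine metabolism, Pycrl (-0.41 ± 0.11), Odc1 (-0.37 ± 0.07), Got2 (-0.32 ± 0.09) and Got1 (-0.22 ± 0.07) fell and Glul, glutamine synthetase, rose (0.23 ± 0.07), 45.5% of the list. Of 13 other cytosolic synthetases and scaffold proteins, Vars (-0.35 ± 0.07), Lars and Farsb (-0.24 ± 0.08) fell and none rose (23.1%). Of 17 mitochondrial synthetases 2 were called (11.8%), Lars2 higher and Yars2 lower. Lars2 was higher with shOgdh2081 (0.83 ± 0.16) but not called with shOgdh346 (0.04 ± 0.17), a difference that passed its own test (0.79 ± 0.16, adjusted p = 0.00982, edgeR). Of 11 other transporters 1 was called (9.09%), Slc38a9, an arginine sensor of the lysosome, which rose (0.41 ± 0.09). Gcsh, Odc1, Vars, Slc38a9 and Sqstm1 were called under all 15 alternatives, whereas Mthfd1, Farsb, Eif2ak1, Tyms and Yars2 were not called in 8 to 11 of them. Eif2ak1 overlaps Aimp2 on the other strand.

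In control BFP positive against negative cells at day 2, 0 of the 19 genes around eIF2alpha were called. Of the 14 other ATF4 targets 4 were higher and 2 lower (42.9%, beside 6.23% of all tested genes). Cars, the cysteine synthetase, rose by 0.76 ± 0.11 (adjusted p = 7.2e-07, edgeR), and Ddit4, Ero1l and Lars by 0.62 ± 0.13, 0.43 ± 0.11 and 0.31 ± 0.09, while Gtpbp2 (-0.46 ± 0.13) and Sqstm1 (-0.37 ± 0.09) fell. Cars and Ddit4 are named here after their values were seen.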

How the data were processed

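Messenger RNA of 14 samples was sequenced. The deposited table holds raw counts per gene beside a transcript length in bases (other unit), per the file headers. Per the submitters' processing notes, the tools were STAR 2.6.1a, featureCounts 1.6.3, Trimmomatic 0.36 and FastQC 0.11.5, with the build mm10/GRCm38. The labels' protocols name a human build, HTSeq and RPKM instead, and the sources used here do not give the strand setting. Groups came from the sample labels.

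Low counts were filtered by filterByExpr with all 7 groups, and libraries scaled by TMM (factors 0.968 to 1.01) in edgeR 4.0.16 under R 4.3.3. All 14 libraries were fitted with 1 term per group, and each comparison was tested by edgeR's quasi-likelihood test with Benjamini-Hochberg adjustment over all tested genes. Called means an adjusted p under 0.05. The fit left 7 residual degrees of freedom, and the biological coefficient of variation was 5.04%. The knockdown contrast is the mean of both hairpins. CPM are counts per 1e6 counts of tested genes, TMM scaled. No replicates agreed within sampling noise (chi-square per degree of freedom 1.16 to 2.71). Nothing in the labels gives the replicates as separate cultures, and p-values therefore measure only the spread between these samples. An exact permutation of 2 against 2 libraries cannot go below p = 0.333.

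Members were described with values or ranges for the libraries of the comparison at hand if called with knockdown or in at least 2 other comparisons. Atf4, Ddit3, Atf3, Asns, Chac1, Trib3, Psat1, Phgdh and Cth were described in any case. Other genes were named only from pathway lists. The members and lists were chosen with earlier results of these data known. Alternatives were RLE factors, no filter, blocks, thinning to equal depth, a length curve, fewer groups, leaving out libraries and DESeq2 1.42.0. The test was checked on simulated data. A few genes of the marker and pathway lists are counted in their lists but not reported by name here.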

Additional observations from a re-analysis of the deposited data

Results flagged for a closer look

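Cth, the enzyme that makes cysteine from cystathionine, stood out because its response to induction of the control hairpin differed between days. The BFP positive against negative log2 fold change was 1.02 ± 0.14 at day 2 and 0.15 ± 0.13 at day 4, a difference of -0.87 ± 0.19 (adjusted p = 0.00736, edgeR). The BFP positive libraries stood at 75.4 and 70.2 CPM at day 2 and at 42.9 and 43.4 CPM at day 4, and the BFP negative libraries at 34.7 and 37.1 CPM and at 38.8 and 38.7 CPM.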

How the results depend on the processing

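Counts of members called in either direction moved by over 1.5 times with 4 kinds of alternative; other kinds moved them by at most 1.5 times. With DESeq2 they were 6 for knockdown against control BFP positive cells, 2 for shOgdh2081, 9 for BFP positive against negative cells at day 2, and 1 each for BFP negative and BFP positive cells of day 4 against day 0. With all libraries thinned to 913482 counts, the same 5 counts were 6, 0, 8, 1 and 0, and there were 4 for knockdown against BFP negative cells and 1 for BFP negative cells of day 2 against day 0. Fitting only the groups compared gave 10 for shOgdh2081 and 12 for shOgdh346. Leaving out 1 library at a time gave 3 to 11 for knockdown against BFP positive cells, 5 to 9 against BFP negative cells, 3 to 5 for shOgdh346, 1 to 7 for shOgdh2081, 5 to 16 for BFP positive against negative cells at day 2, 13 to 18 for BFP positive cells of day 2 against day 0, 1 to 2 for BFP negative cells of day 2, 0 to 6 for BFP negative cells of day 4 and 0 to 1 for BFP positive cells of day 4. The cause was not tested. Among values of single genes that passed the threshold in either fit, 1 changed sign, that of Trib3 at day 2, which ran from -0.0037 without BFP positive replicate 1 to 0.96 without BFP positive replicate 2; counting called and uncalled values together, 4775 stayed on their side of the threshold, 250 lost it and 50 gained it.

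Replicate numbers were not taken to pair the samples. Deviations from group means correlated by -0.211 to 0.282, and 4 of 21 pairs of groups exceeded 0.1. With 2 libraries per group, such values neither show nor exclude pairing. With the replicate number as a block, 13 members were called with knockdown (12 of them shared), 9 with shOgdh2081 and 18 at day 2. With the set of library numbers as a block, which crosses the numbers of shOgdh346, the counts were 10, 6 and 18. Depth limits the low genes most: Chac1 rested on 1 to 32 counts per library.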

Other observations

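Atf5, Sesn2 and Gpt2 were higher in the deeper than in the shallower library of each Ogdh hairpin, and none of the 3 was called for the mean of both hairpins. Atf5 had 12.4 CPM in shOgdh346 replicate 1 (71 counts) and 12 in shOgdh2081 replicate 2 (56 counts), but 6.85 and 4.39 CPM in the shallower libraries, from 8 and 4 counts. Control BFP positive cells at day 4 had 6.27 and 7.46 CPM. Sesn2 had 50.8 and 49.8 CPM in the deeper libraries, 34.2 and 40.6 in the shallower ones and 38.2 and 35.4 in control cells. Its log2 fold change was 0.35 ± 0.14 (adjusted p = 0.0673, edgeR) with all libraries and 0.44, past the threshold, without the shallower library of each hairpin. The same step took Atf5 from 0.70 to 0.85 and Gpt2 from 0.58 to 0.66, both then past the threshold. These 3 genes were picked after their values were seen.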
